A study of Homo sapiens with 5 samples.

Results

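Human loci at which DNA replication origins have been mapped, 5 in all, were examined for KAT7 and for histone H3 acetylated at lysine 27 (H3K27ac). The loci are those of LMNB2, MCM4, TOP1, DNMT1 and HBB. They were chosen by name, and a member was any ChIP-seq summit that lay in the span of 1 of these genes or within 20 kb of it. The rule took in 62 of the 209263 summits of the 5 lists in the series, and no measured value entered it. The members and lists were, however, chosen with earlier results of these data known. In hg19 the spans ran on chromosome 19 from 2428000 to 2457000 for LMNB2, on chromosome 8 from 48872000 to 48891000 for MCM4 and on chromosome 20 from 39657000 to 39754000 for TOP1. They ran on chromosome 19 from 10244000 to 10306000 for DNMT1 and on chromosome 11 from 5246000 to 5249000 for HBB. The spans are given to the nearest 1 kb, so a distance from a span edge is no more exact than that. HCT116 cells, an established human colorectal cancer line, had received an siRNA against the long noncoding RNA ENO1-IT1 or a control siRNA for 48 h, and chromatin was precipitated with an antibody against KAT7 or against H3K27ac. The other library was input DNA without antibody, whose label names no siRNA. Groups were taken from the sample titles, each group held 1 library, and the knockdown itself cannot be read from summit lists. Differences between siRNAs therefore describe single libraries and have no test. Origin firing was not measured, so the name of the loci rests on earlier knowledge of them.

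Replication origins are prepared in the G1 phase, when the origin recognition complex, with CDC6 and CDT1, loads the MCM helicase onto DNA. KAT7, also called HBO1, is a histone acetyltransferase that was first found as a partner of the origin recognition complex and that binds MCM proteins and CDT1. It acetylates histones H3 and H4, and it also works at gene promoters, in complexes with BRPF or JADE proteins. H3K27ac is placed mainly by p300 and CBP and marks active promoters and enhancers. Many mammalian origins lie at promoters rich in CpG dinucleotides, so the mapped origins and the starts of genes are often close to each other. The LMNB2 origin, among the best studied in human cells, lies at the 3′ end of LMNB2 beside the start of the neighbouring gene TIMM13. The MCM4 origin lies in the stretch that MCM4 shares with the oppositely transcribed PRKDC, the TOP1 origin at the TOP1 promoter, and the HBB origin near the start of HBB, in the beta-globin cluster.

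To show how rich in CpG these starts are, the 250 bases upstream of the gene start are given for 4 of the 6 genes looked up, those with an entry in the RefSeq promoter table (GRCh38.p14). They read 5′ to 3′ on the strand of the gene, with each CG dinucleotide in capitals. TIMM13 is included because the LMNB2 origin lies beside its start. The coordinates are of GRCh38.p14 and cannot be set against the hg19 summits.
LMNB2, chr19:2456960-2457209, reverse strand: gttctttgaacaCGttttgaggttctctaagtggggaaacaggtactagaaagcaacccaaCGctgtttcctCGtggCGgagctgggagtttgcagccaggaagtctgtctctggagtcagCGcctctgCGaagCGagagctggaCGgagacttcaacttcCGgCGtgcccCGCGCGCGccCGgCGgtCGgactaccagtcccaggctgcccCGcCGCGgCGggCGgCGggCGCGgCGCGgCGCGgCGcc
TIMM13, chr19:2427587-2427836, reverse strand: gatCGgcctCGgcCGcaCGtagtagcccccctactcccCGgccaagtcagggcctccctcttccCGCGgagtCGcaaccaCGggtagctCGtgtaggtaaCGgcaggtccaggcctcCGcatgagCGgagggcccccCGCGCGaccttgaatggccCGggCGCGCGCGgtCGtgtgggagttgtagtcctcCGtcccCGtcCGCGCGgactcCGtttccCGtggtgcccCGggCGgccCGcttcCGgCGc
TOP1, chr20:41028572-41028821, forward strand: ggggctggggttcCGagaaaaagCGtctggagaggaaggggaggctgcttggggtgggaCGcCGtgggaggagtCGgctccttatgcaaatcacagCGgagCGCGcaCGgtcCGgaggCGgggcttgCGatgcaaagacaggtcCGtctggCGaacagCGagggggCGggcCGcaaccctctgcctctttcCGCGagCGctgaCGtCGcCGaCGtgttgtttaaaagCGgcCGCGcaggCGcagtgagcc
DNMT1, chr19:10194954-10195203, reverse strand: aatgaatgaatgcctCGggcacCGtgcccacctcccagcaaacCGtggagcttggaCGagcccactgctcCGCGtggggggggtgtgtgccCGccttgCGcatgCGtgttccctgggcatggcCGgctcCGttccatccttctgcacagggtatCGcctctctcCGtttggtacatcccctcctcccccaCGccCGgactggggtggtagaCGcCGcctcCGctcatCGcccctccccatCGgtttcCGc

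The TIMM13 stretch held 34 CG dinucleotides, the LMNB2 stretch 30, the TOP1 stretch 28 and the DNMT1 stretch 21. The median over the 35116 promoters of the table was 11. Fewer CG dinucleotides than in TIMM13 were found in 93.2% of those promoters, and fewer than in DNMT1 in 69.8%. The GC box GGGCGG, searched on both strands, occurred once each in the LMNB2, TIMM13 and TOP1 stretches and not in that of DNMT1, and 42.6% of all promoters held it. A run of 4 GGG blocks with 1 to 7 bases between them, the usual search pattern for G-quadruplexes, was in none of the 4 stretches on either strand and in 23.3% of all promoters. CCAAT was in none of the 4 on either strand, and 32% of all promoters held it.

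H3K27ac was listed at the starts of LMNB2, MCM4, TOP1 and DNMT1 in both conditions, and at HBB in neither. KAT7 was listed at the starts of these genes only with scores under 3. After ENO1-IT1 siRNA it was within 2 kb of the start edge of MCM4 and TOP1. At both it scored 2.47, and 2.61% of that list scored lower. After control siRNA it was within 2 kb of the start edge of LMNB2. There the summit nearest the edge scored 2.68, the median of its list. Of the KAT7 summits at these loci, 3 of 5 after ENO1-IT1 siRNA and 2 of 25 after control siRNA had H3K27ac of the same condition within 500 bp, beside 19.0% and 3.67% of the whole lists. KAT7 without H3K27ac nearby was thus the common case in the control list, at these loci as over the genome. Of the KAT7 summits after ENO1-IT1 siRNA at the loci, the highest-scored lay 9788 bp upstream of DNMT1. Of those after control siRNA, the highest-scored lay at the 3′ end of LMNB2, 33 bp from control H3K27ac, and scored above 94% of its list. This is the end at which the LMNB2 origin lies, beside the start of TIMM13, which was not among the starts counted. No input summit lay in any of the searched windows, and the nearest to a member was 1270 kb away.

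**Figure D1:**
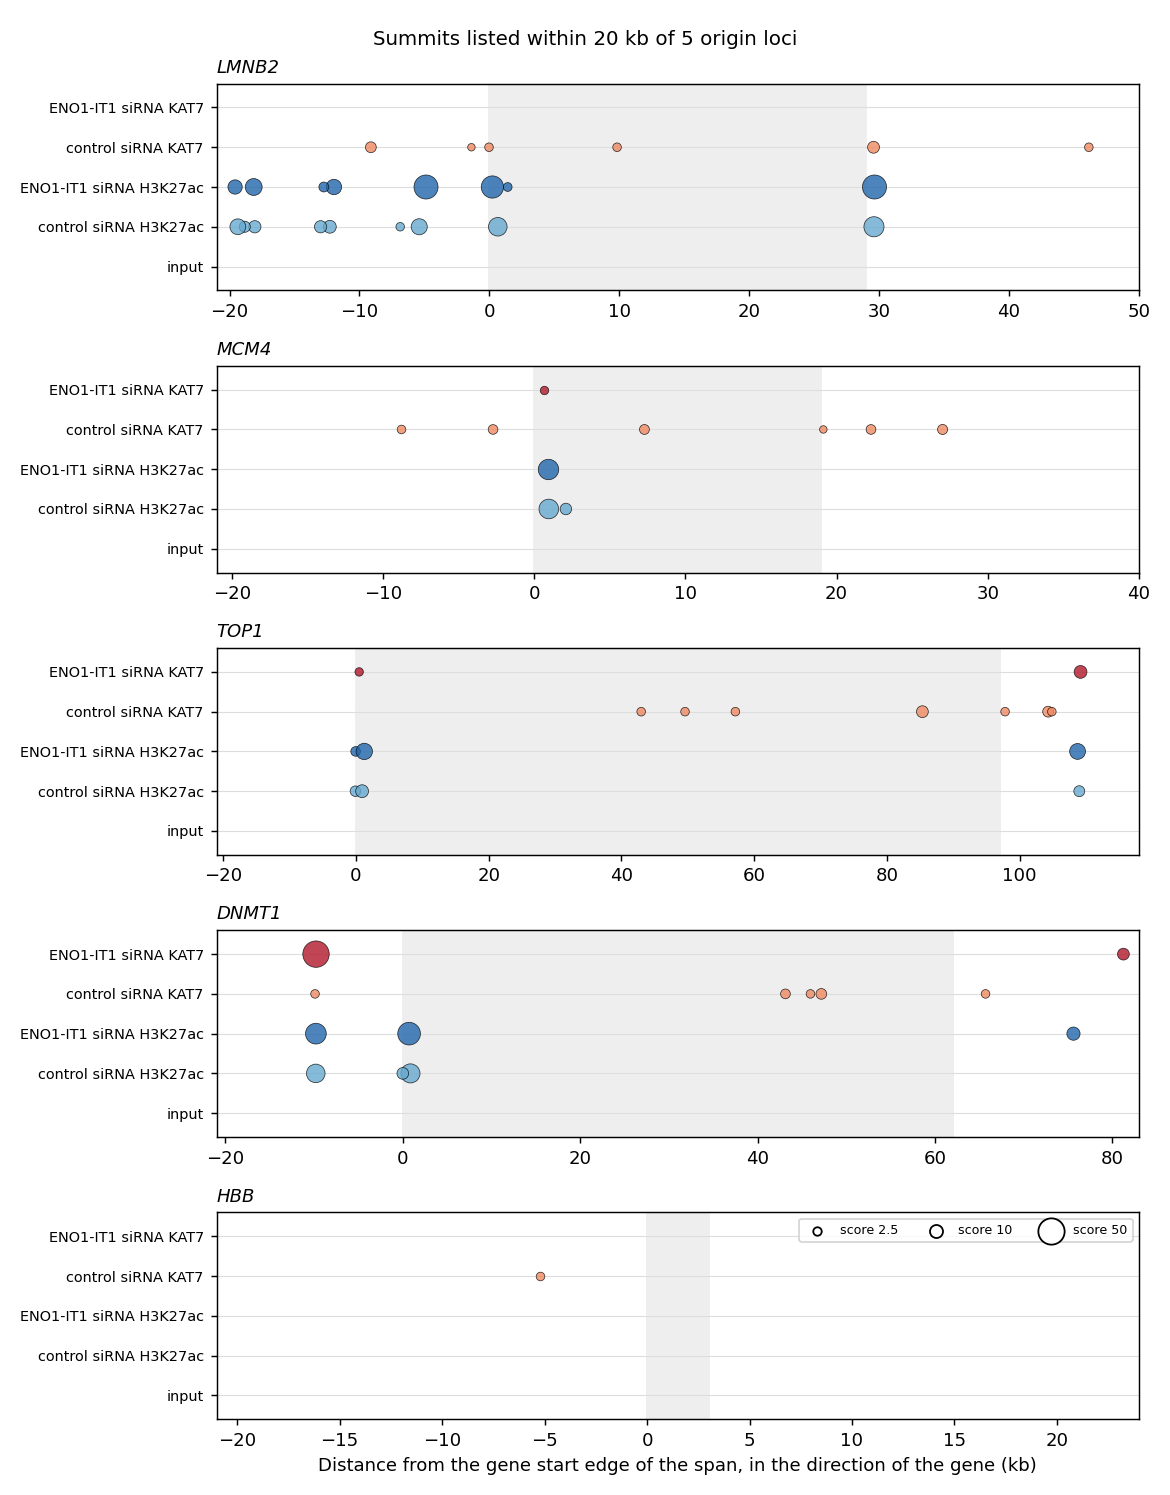
Each circle is a listed summit at 1 of the 5 loci, placed by its distance from the gene start edge of the span (kb, positive into the gene) and drawn larger with a higher score. The score is a -log10 p or q value that is not on a common scale between lists, grey marks the gene span, and rows are the 5 lists. H3K27ac sat at the start edge of LMNB2, MCM4, TOP1 and DNMT1 in both conditions, control KAT7 was scattered over all 5 loci, and HBB held 1 summit.

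The 4 immunoprecipitated lists held 24611 KAT7 summits after ENO1-IT1 siRNA, 122439 KAT7 summits after control siRNA, 31839 H3K27ac summits after ENO1-IT1 siRNA and 29429 after control siRNA. The input list held 945. Sequencing depth is unknown, because the files give 1 position and 1 score per peak and no reads. The control KAT7 list is dominated by weak calls, with the single score of 2.68 at 52298 summits, or 42.7% of the list. At the 5 loci it held 25 summits, of which 13 carried that score and 2 the next most frequent, 1.31.

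Counts at the loci were read against windows of the mean searched length, 82 kb, laid end to end along the genome. KAT7 after ENO1-IT1 siRNA was listed at 3 of the 5 loci, where 44.8% of all such windows held a summit. KAT7 after control siRNA was listed at 5 of 5, but 90.8% of all windows held a summit of that list, so the control count is near the background. H3K27ac after ENO1-IT1 siRNA was listed at 4 of 5 loci against 33.6% of windows, and H3K27ac after control siRNA at 4 of 5 against 29.9%. Input was listed at 0 of 5 against 0.888% of windows. Per 100 kb searched there were 1.22 (exact Poisson 95% interval 0.396 to 2.85) KAT7 summits after ENO1-IT1 siRNA and 6.1 (3.95 to 9) after control siRNA, where the whole lists gave 0.818 and 4.07. The H3K27ac values were 3.66 (2.05 to 6.03) after ENO1-IT1 siRNA and 4.15 (2.42 to 6.64) after control siRNA, where the whole lists gave 1.06 and 0.978. LMNB2 alone held 8 of the 15 H3K27ac summits after ENO1-IT1 siRNA and 9 of the 17 after control siRNA, so the pooled values rest largely on that locus. MCM4, TOP1 and DNMT1 gave 1.69, 2.19 and 2.94 after ENO1-IT1 siRNA and 3.39, 2.19 and 2.94 after control siRNA, and HBB 0 in both. These intervals cover counting error only and take summits as independent, although those at LMNB2 lay close together. The KAT7 lists differ in length over the whole genome in the same direction, so the lower count after ENO1-IT1 siRNA is not particular to these loci.

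**Figure D2:**
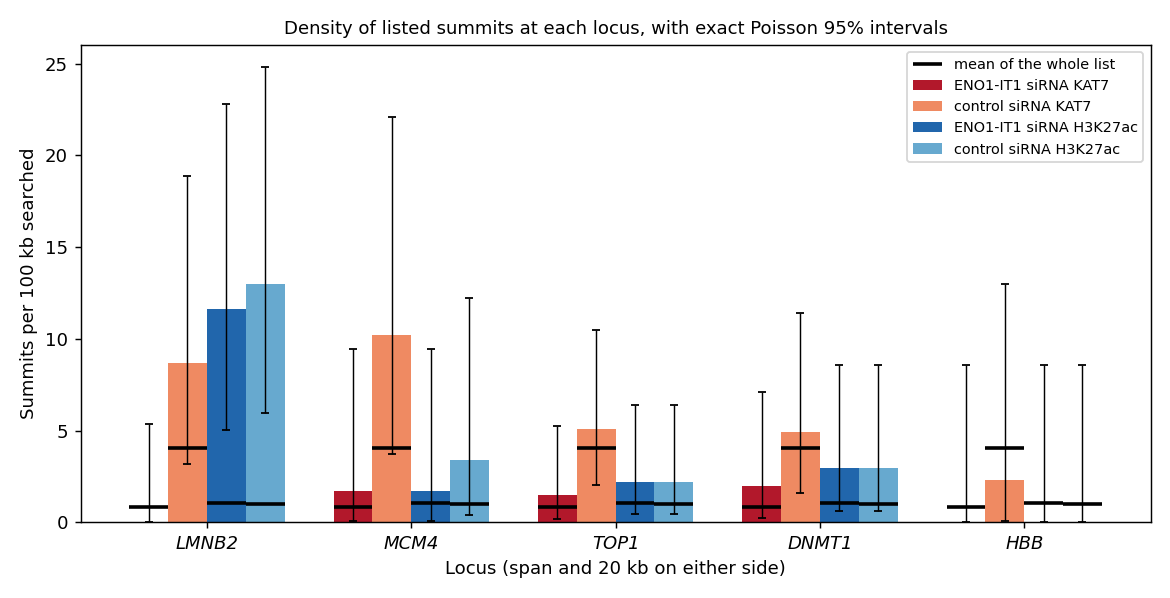
Bars give summits per 100 kb searched at each locus for KAT7 and H3K27ac after ENO1-IT1 siRNA and after control siRNA, whiskers are exact Poisson 95% intervals, and thick lines are the mean of the whole list. LMNB2 had the most H3K27ac, 11.6 after ENO1-IT1 siRNA and 13 after control siRNA, and HBB had none in either.

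Gene starts were looked at separately, without that of TIMM13. Within 2 kb of the start edge H3K27ac was listed at 4 of 5 loci after ENO1-IT1 siRNA and at 4 of 5 after control siRNA, while 3.31% and 2.84% of all windows of 4 kb held a summit of these lists. KAT7 was listed there at 2 of 5 loci after ENO1-IT1 siRNA, against 3.12% of windows, and at 1 of 5 after control siRNA, against 14.9% of windows. Input was there at 0 of 5, against 0.0892% of windows. Windows along the genome mostly hold no gene start, and other gene starts were not analysed here, so these shares do not say how the 5 starts compare with starts in general. The KAT7 summits at starts all had a score under 3, and at a minimum score of 3 the KAT7 counts were 0 of 5 in both conditions. That minimum cuts the KAT7 lists unequally. It removes the control summits with scores of 2.68 and 1.31, which are 42.7% and 21.4% of that list. In the ENO1-IT1 siRNA list 80.9% scored at least 5. The H3K27ac counts at a minimum score of 10 were 4 of 5 after ENO1-IT1 siRNA and 3 of 5 after control siRNA. Scores are not on a common scale between lists, so these counts do not rank the marks or the conditions.

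LMNB2 encodes lamin B2, a filament protein of the nuclear envelope, and its origin lies at the far end of the gene from its start. At this 3′ end, on the side of TIMM13, H3K27ac was listed at 2427357 after ENO1-IT1 siRNA with a score of 41.3, and at 2427398 after control siRNA with a score of 28. These positions lay 643 and 602 bp outside the span. Each scored higher than most of its list, above 96.8% of the summits after ENO1-IT1 siRNA and 95.6% after control siRNA. KAT7 was listed there after control siRNA only, at 2427431, 33 bp from the control H3K27ac summit, with a score of 7.87 that was above 94% of the control KAT7 list. After ENO1-IT1 siRNA the KAT7 summit nearest to this edge was 50.4 kb away, at 2377560. The control summit was the highest-scored of the 25 control KAT7 summits at the loci and 1 of only 2 with control H3K27ac within 500 bp. Of the 1910 control KAT7 summits that carry this same score, 7.38% had control H3K27ac that near.

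At the start of LMNB2, H3K27ac was listed 230 bp inside the span after ENO1-IT1 siRNA (2456770, score 34.9) and 647 bp inside it after control siRNA (2456353, score 23.5). A control KAT7 summit at 2457030 lay 30 bp from the start edge, with the common low score of 2.68. It was 677 bp from control H3K27ac and 260 bp from H3K27ac after ENO1-IT1 siRNA. A second, at 2458383, had the score of 1.31, close to the lowest of the list. It was 2030 bp from control H3K27ac and 1613 bp from H3K27ac after ENO1-IT1 siRNA. Both are thus weak calls, and neither had control H3K27ac within 500 bp. Farther upstream, toward GADD45B (the next protein-coding gene in RefSeq GRCh38.p14), H3K27ac was dense. In the whole window it was listed 8 times after ENO1-IT1 siRNA and 9 times after control siRNA, more than in 98.8% and 99.1% of windows of the same length. The highest-scored summits of that stretch were at 2461878 after ENO1-IT1 siRNA (41.3) and at 2462401 after control siRNA (16.8), which lay 523 bp apart and thus just beyond the distance counted as shared. The highest-scored control KAT7 summit upstream of the start was at 2466124 (score 6.02), 2259 bp from control H3K27ac. KAT7 was listed 0 times in this window after ENO1-IT1 siRNA and 6 times after control siRNA. Of all windows of that length, 60.3% also held 0 summits of the ENO1-IT1 siRNA list, and 90.9% held fewer than 6 of the control list.

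MCM4 encodes a subunit of the replicative helicase. The H3K27ac summits at its start lay 941 bp into the span after ENO1-IT1 siRNA (48872941, score 28.9) and 971 bp into it after control siRNA (48872971, score 26.5), 30 bp apart. A weaker control summit followed at 48874102 (score 7.14), with no counterpart within 500 bp after ENO1-IT1 siRNA. KAT7 was listed at the start after ENO1-IT1 siRNA, at 48872668, 273 bp from the H3K27ac summit of the same cells. Its score of 2.47 was low, with 2.61% of the list scoring lower. Among the 415 summits with this score, 24.6% had H3K27ac of the same condition within 500 bp. After control siRNA, KAT7 was listed 6 times in the window but not at the start. The nearest was 2716 bp upstream of MCM4, on the side of PRKDC, at 48869284 (score 4.18), and the highest-scored was past the gene end at 48899015 (score 4.83). Next in score were those at 48879296 in the span (4.49) and at 48894279 past its end (4.28). The 6 control summits lay 3687 to 22376 bp from control H3K27ac. Of all windows of this length, 94.6% held fewer control KAT7 summits.

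TOP1 encodes DNA topoisomerase I, which relieves the torsion ahead of replication forks and transcribing polymerases. Its start carried a pair of H3K27ac summits in each condition, at 39656955 (score 4.13) and 39658260 (score 17.5) after ENO1-IT1 siRNA and at 39656922 (score 5.45) and 39657931 (score 9.68) after control siRNA. The first of each pair lay outside the span, 45 and 78 bp before its edge. KAT7 was listed between the members of the pair after ENO1-IT1 siRNA, at 39657489, again with the low score of 2.47. It lay 534 bp from the nearest H3K27ac summit of the same cells, just over the 500 bp limit, and 442 bp from the nearest control H3K27ac summit. After control siRNA the KAT7 summit nearest to the start edge was 27.3 kb away and outside the window. The 7 control KAT7 summits of the TOP1 window lay from 42986 bp into the gene to 7871 bp past its end, and the nearest to H3K27ac of either condition was 3877 bp from it. The highest-scored of these was at 39742366 in the span (score 7.71), 23382 bp from H3K27ac after ENO1-IT1 siRNA and 23639 bp from it after control siRNA. The next in score was past the gene end, at 39761310 (score 6.02), and the other 5 carried the score of 2.68.

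Past the end of TOP1, on the side of PLCG1, both marks were listed after ENO1-IT1 siRNA, KAT7 at 39766196 (score 9.58) and H3K27ac at 39765748 (score 16.2), 448 bp apart. This KAT7 summit is 1 of the 3 counted with H3K27ac of the same condition after ENO1-IT1 siRNA. It lay 109196 bp from the TOP1 start edge, and thus far from the origin at the TOP1 promoter. H3K27ac was also listed there after control siRNA, at 39766005 (score 6.15). The nearest control KAT7 summit, at 39761871, was 4325 bp from the KAT7 summit of the ENO1-IT1 siRNA list.

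DNMT1 encodes the enzyme that copies DNA methylation onto newly replicated strands. H3K27ac was strong at its start in both conditions, at 10305295 after ENO1-IT1 siRNA (score 36.4) and at 10305139 after control siRNA (score 25), 705 and 861 bp into the gene. A second, weaker control summit was at 10306002 (score 7.49), 2 bp from the edge. KAT7 was not listed at this start in either condition. The KAT7 summits nearest to it lay upstream, 9788 bp from the edge after ENO1-IT1 siRNA (10315788, score 50.5) and 9899 bp from it after control siRNA (10315899, score 2.68). H3K27ac lay at the same place after ENO1-IT1 siRNA (10315801, score 30) and after control siRNA (10315814, score 23.5). All 4 immunoprecipitated lists thus had a summit within 111 bp of the KAT7 summit after ENO1-IT1 siRNA.

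That summit was the only 1 of the 5 KAT7 summits after ENO1-IT1 siRNA with each of the other 3 lists within 500 bp, a property of 10.3% of its list. At this score acetylation nearby is common, since 71.8% of the 39 summits of that list with the same score had H3K27ac of the same condition within 500 bp. It scored above 95% of the KAT7 summits after ENO1-IT1 siRNA, whereas its control partner carried the commonest low score of the control list. Scores of different lists are not on a common scale, so these values show no change in binding. The remaining control KAT7 summits were spread over the 3′ part of the gene and past its end, from 43141 to 65702 bp after the start. The highest-scored of these were at 10258812 (score 5.8) and 10262859 (score 4.28), and the others had the score of 2.68. The remaining KAT7 summit after ENO1-IT1 siRNA, at 10224754 (score 7.67), lay 19246 bp past the gene end and 5631 bp from H3K27ac of the same condition, which was listed at 10230385 (score 10.4). The control H3K27ac list had no summit past the gene end inside the window.

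HBB encodes beta-globin, which is made in erythroid cells. Its window held 1 summit of any list, a control KAT7 summit at 5254207 with the common low score of 2.68, 5207 bp upstream of the start edge, on the side of HBD. Of all windows of its length, 78.1% held at least 1 control KAT7 summit. The nearest H3K27ac summits were at 5008176 after ENO1-IT1 siRNA (score 10.4) and at 5008175 after control siRNA (score 10.1), 241 kb from the start edge and 1 bp apart. Of the midpoints of all windows of the same length, 29.2% lay farther from H3K27ac than the middle of the HBB span after ENO1-IT1 siRNA and 33.3% after control siRNA. The middle of the HBB span was 239 kb from H3K27ac in both conditions, longer than the median over the midpoints, 89.6 kb after ENO1-IT1 siRNA and 110 kb after control siRNA. Stretches that can hold no summit, such as assembly gaps, were not taken out of the windows.

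Over the 5 loci together, 3 of 5 KAT7 summits after ENO1-IT1 siRNA had H3K27ac of the same condition within 500 bp (60%, exact Clopper-Pearson 95% interval 14.7 to 94.7%), against 19.0% of that list. After control siRNA 2 of 25 did (8%, 0.984 to 26%), against 3.67% of that list. The intervals are wide, and each takes in the value of its whole list. From the side of acetylation, 3 of 15 H3K27ac summits after ENO1-IT1 siRNA had KAT7 within 500 bp (20%, 4.33 to 48.1%), against 14.3% of that list, and 2 of 17 after control siRNA (11.8%, 1.46 to 36.4%), against 14.8%. These shares are near the background of their lists. With H3K27ac of either condition as the partner, 4 of 5 KAT7 summits after ENO1-IT1 siRNA had it within 500 bp, against 22.1% of that list, and 3 of 25 after control siRNA, against 4.74%. Inside the gene spans it was 2 of 2 after ENO1-IT1 siRNA and 0 of 9 after control siRNA. Of these 2, the TOP1 summit counted only through control H3K27ac, 442 bp away, and lay 534 bp from H3K27ac of its own condition. A count of 2 summits is too small to set against the 22.1%. At a share of 4.74%, a count of 0 among 9 summits is near the background. The median distance to H3K27ac of either condition was 273 bp for the 5 summits after ENO1-IT1 siRNA and 10920 bp for the 25 control summits. Over the whole lists it was 36750 and 70820 bp. H3K27ac was denser at the loci than over its whole lists, 3.66 against 1.06 per 100 kb after ENO1-IT1 siRNA and 4.15 against 0.978 after control siRNA. Any summit placed at the loci tends to lie nearer to H3K27ac. These medians and the KAT7 shares above therefore cannot be read as particular to KAT7.

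**Figure D3:**
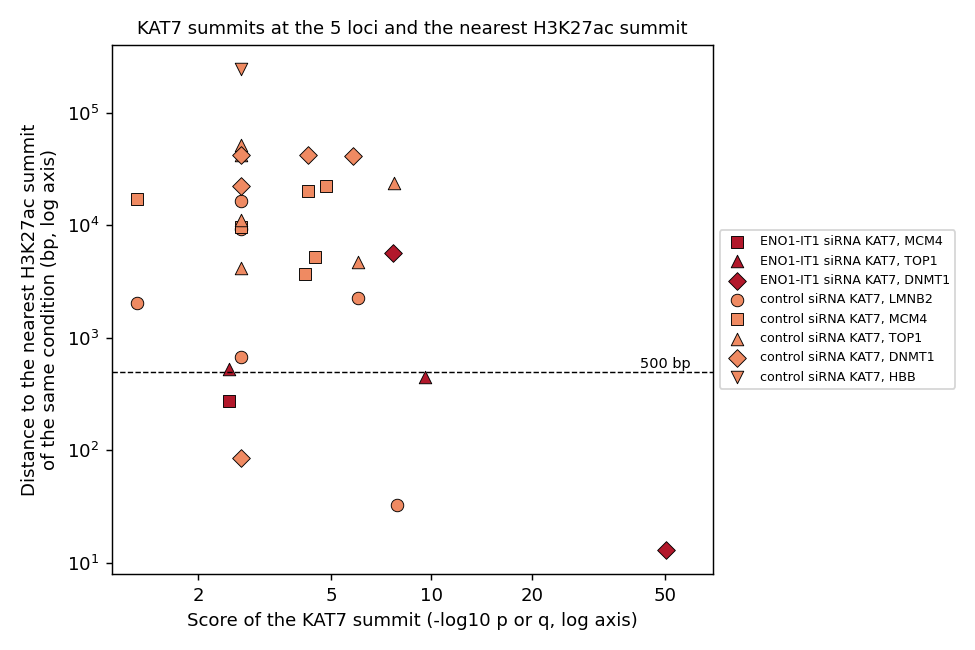
Each point is a KAT7 summit at the loci, with its score (-log10 p or q, log axis) across and its distance to the nearest H3K27ac summit of the same condition (bp, log axis) upward. Dark red is ENO1-IT1 siRNA and orange control siRNA, and shapes are loci. Below the dashed 500 bp line lie 3 of 5 summits after ENO1-IT1 siRNA and 2 of 25 after control siRNA, where 19.0% and 3.67% of the whole lists do, the lowest being the DNMT1 upstream site at 13 bp and the LMNB2 3′ end at 33 bp.

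KAT7 positions were rarely the same in both conditions. Of the KAT7 summits after ENO1-IT1 siRNA 1 of 5 had a control KAT7 summit within 500 bp (20%, 0.505 to 71.6%), against 32.2% of that list. Of the control summits 1 of 25 had a counterpart after ENO1-IT1 siRNA (4%, 0.101 to 20.4%), against 6.62%. The single shared site was the one upstream of DNMT1. H3K27ac positions were mostly shared. Of the H3K27ac summits after ENO1-IT1 siRNA 12 of 15 had a control counterpart (80%, 51.9 to 95.7%), against 64.3% of that list. Of the control summits 12 of 17 had one after ENO1-IT1 siRNA (70.6%, 44 to 89.7%), against 71.9%. For both marks these shares are close to those of the whole lists at the precision of the counts.

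The H3K27ac summits without a counterpart within 500 bp were 3 after ENO1-IT1 siRNA and 5 after control siRNA. Each of the 5 control ones had H3K27ac of the other condition at most 1987 bp away, as did those after ENO1-IT1 siRNA at LMNB2. At DNMT1 the summit listed after ENO1-IT1 siRNA past the gene end was 12520 bp from the nearest control one, the largest such distance at the loci. The median distance between H3K27ac summits of the conditions was 250 bp from the ENO1-IT1 siRNA side and 257 bp from the control side, beside 228 and 188 bp over the whole lists.

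In score, the members were spread widely over their lists. Single H3K27ac summits scored above 6.29% to 96.8% of their list, and the highest KAT7 summits above 95% of the list after ENO1-IT1 siRNA and 94% after control siRNA. A score of at least 10 was reached by 12 of 15 H3K27ac summits after ENO1-IT1 siRNA (40.1% of that list) and by 7 of 17 after control siRNA (31.2%). It was reached by 1 of 5 KAT7 summits after ENO1-IT1 siRNA (37.4%) and by 0 of 25 after control siRNA (2.75%). A score of at least 5 was reached by 3 of 5 KAT7 summits after ENO1-IT1 siRNA (80.9% of that list) and by 5 of 25 after control siRNA (13.2%). The median H3K27ac score at the loci was 17.5 after ENO1-IT1 siRNA, with 8.02 over that list, and 9.68 after control siRNA, with 7.14 over that list. The median KAT7 score was 7.67 after ENO1-IT1 siRNA and 2.68 after control siRNA, at the loci and over each whole list alike.

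The distance limit decided a few members. Just inside it lay 1 of the 5 KAT7 summits after ENO1-IT1 siRNA, past the end of DNMT1 at 19246 bp from the span (score 7.67). Also just inside were the H3K27ac summits upstream of LMNB2, at 19575 bp from the span after ENO1-IT1 siRNA (score 12.7) and at 19363 bp after control siRNA (score 16.2). Just outside it lay the H3K27ac summits upstream of TOP1, at 20123 bp after ENO1-IT1 siRNA (score 27.3) and at 20141 bp after control siRNA (score 20.1). Upstream of LMNB2, control summits of KAT7 at 20177 bp (score 2.43) and of H3K27ac at 20185 bp (score 6.8) were also left out.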

How the data were processed

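Per the submitters' processing notes, the tools were Bowtie and MACS2 and the build was hg19; their versions and options, and whether input served as control, are not stated in what was used here. The authors deposited 1 list of 1 bp summits per library, with a score that is a −log10 p or q value, which of these is not stated. Tags in the peak names record duplicate removal. Scores grow with depth, which is unknown, so the rank of a summit was taken only within its list. The same minimum scores were also applied to every list, and these cut the lists unequally. A score of at least 10 was reached by 37.4% of the KAT7 list after ENO1-IT1 siRNA and by 2.75% of the control KAT7 list.

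Spans were those of the stated rule. Distances between summits, counts and windows were computed in Python 3.11.15 (pandas 2.3.3, numpy 2.4.6, SciPy 1.17.1), and matplotlib 3.10.9 drew the plots. Summits at most 500 bp apart counted as shared. Windows covered each chromosome from its first to its last summit, without the mitochondrial genome. The code was tested on simulated lists. Intervals are exact (95%) and cover counting error only; PCR reads are not independent molecules. Positions are hg19, counted from 1. Promoter sequences and neighbouring genes are from RefSeq (GRCh38.p14). Gene directions are textbook knowledge.

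All summits of a list were named where a locus held 4 or fewer, otherwise the 3 highest in score (fewer where scores tied) and the one nearest the gene start, with any KAT7 summit within 1000 bp of H3K27ac. The members and lists were chosen with earlier results of these data known, and the 2 kb start radius after seeing the positions.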

Additional observations from a re-analysis of the deposited data

How the results depend on the processing

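Most results rest on very few summits, and score minimums changed the KAT7 values most. Of 84 comparisons of 14 results with an alternative, 65 stayed close and 19 did not. For each of the 14 results, 1 comparison left out summits within 1000 bp of input. It could change nothing, because the nearest input summit was 1270 kb from any member. Merging summits within 500 bp also left every density unchanged. Such comparisons count among the 65 but say nothing about how stable the results are. A share was close when inside the 95% interval of the reported share, and a density or a number of loci when within 1.5 times the reported one. At a score of at least 3, KAT7 density per 100 kb was 0.732 after ENO1-IT1 siRNA and 2.44 after control siRNA, and at 10 it was 0.244 and 0. A score of 10 was reached by 37.4% and 2.75% of these whole lists, and a score of 5 by 80.9% and 13.2%. Score minimums therefore do not compare the conditions. H3K27ac density after control siRNA was 1.71 at 10. The number of gene starts with KAT7 was 0 in both conditions at scores of 3 and of 10, and 2 after control siRNA with a 5 kb radius. The share of KAT7 summits after ENO1-IT1 siRNA with H3K27ac was 100% at 10, where 1 summit remained. It was 20% (1 of 5) within 100 bp, 80% (4 of 5) within 1000 bp and 33.3% (3 of 9) at a search distance of 50 kb. These values counted as close to the reported 60% only because its interval is wide, 14.7 to 94.7%. The share is thus not shown to be stable. The share of KAT7 summits with a counterpart in the other condition was 0% in both directions at a score of 3 and within 100 bp, and 0% at 10 from the ENO1-IT1 siRNA side; the control side had no summit left there and gave no value. The share of H3K27ac summits with a counterpart was 33.3% after ENO1-IT1 siRNA and 29.4% after control siRNA within 100 bp, and 50% after ENO1-IT1 siRNA at a score of 10. Score minimums leave fewer summits by construction. No paired analysis was possible because each group held 1 library. The radius around gene starts and its alternatives were chosen after seeing the data.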
